A study of Mus musculus with 63 samples.

Results

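The genes of fatty acid oxidation and ketogenesis were followed in organoids of the mouse small intestine and in intestinal epithelial cells (IECs) after loss of the Mediator kinases CDK8 and CDK19. The module holds 37 genes, chosen by symbol from the 54752 gene identifiers of the count tables. It was divided by the organelle in which the products act. The mitochondrial arm has 17 genes (Cpt1a, Slc25a20, Cpt2, Acadvl, Acadl, Acadm, Acads, Hadha, Hadhb, Hadh, Echs1, Eci1, Decr1, Acaa2, Etfa, Etfb and Etfdh). The peroxisomal arm has 10 genes (Abcd3, Acox2, Ehhadh, Hsd17b4, Acaa1a, Acaa1b, Decr2, Eci2, Crot and Pex11a). The other 10 members (Acacb, Mlycd, Crat, Acot1, Acot2, Acot12, Bdh1, Acsm5, Pdk4 and Angptl4) supply substrates, set the flux or act beside the pathway.

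In mitochondria, long-chain fatty acids enter as carnitine esters and are shortened by repeated cycles of dehydrogenation, hydration, a further dehydrogenation and thiolysis, and the electrons reach the respiratory chain through the electron transfer flavoprotein. Peroxisomes shorten very long and branched chains by a parallel set of enzymes and pass the products on as carnitine esters. In the small intestine this machinery serves both absorptive enterocytes and crypt stem cells and is induced by nuclear receptors of the PPAR family. Ketone bodies are made from the acetyl-CoA that oxidation yields.

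The analysis covers 57 libraries in 19 groups of 3. The time course came from a single small intestinal organoid line, VillinCreERT2; Cdk8 fl/fl; Cdk19 ko/ko, which lacks Cdk19 from the start also in its controls. It received 4-hydroxytamoxifen (4-OHT, 100 nM for 24 hours), which activates the Cre recombinase driven by the Villin promoter in intestinal epithelium, or 0.001% ethanol (EtOH) as vehicle, and was collected at 3, 5, 7 and 10 days. The same line was grown in Wnt3-conditioned medium (Wnt3-CM) and collected at 10 days. A further line, VillinCreERT2; Cdk8 fl/fl; Cdk19 ko/D173A, carries a kinase-dead Cdk19 allele and was collected 7 days after either agent. Organoids of 5 lines were all collected 7 days after 4-OHT, and these were VillinCreERT2, C57BL/6, VillinCreERT2; Cdk8 fl/fl (CDK8iIEC-KO), Cdk8 fl/fl; Cdk19 ko/ko without Cre (Cdk19-/-), and VillinCreERT2; Cdk8 fl/fl; Cdk19 ko/ko (CDK8iIEC-KO/Cdk19-/-). IECs came from VillinCreERT2 and CDK8iIEC-KO/Cdk19-/- mice 14 days after 5 daily doses of tamoxifen at 80 mg/kg. All mice were C57BL/6, and their age is not given in the labels. Each IEC library carries an animal number of its own, whereas the 3 libraries of every organoid group carry 1 line number, so that the p-values for organoids measure the spread between libraries of one line. EtOH was given only to lines with Cre and floxed Cdk8. Where 4-OHT is compared with EtOH, an effect of 4-OHT or of Cre itself therefore cannot be told apart from loss of CDK8.

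Totals ran from 15485959 to 32909565 counts per library, and the 37 genes took 0.245% to 0.651% of them. Summed over the whole gene, Cdk8 did not separate the groups labelled as deleted (34.2 to 57.5 CPM with 4-OHT over the time course, 38.5 to 57 with EtOH). Cdk19 also kept 24.7 to 26 CPM in Cdk19-/- against 28.7 to 34.5 CPM in C57BL/6 organoids. The tables hold no counts per exon and do not show whether the targeted exons were lost, so the groups are named throughout as the labels name them. The kinase-dead line was identified by elimination: its columns give no genotype, and no other line with EtOH libraries was left. Levels are CPM (counts scaled to a common library size) on library sizes scaled by TMM within a table, and levels from separate tables were scaled separately. A gene was called higher or lower when edgeR's quasi-likelihood test, adjusted by Benjamini-Hochberg over all genes of the table, gave p under 0.05 and its fold change exceeded 1.5. Values after ± are standard errors (SE) for log2 fold changes and SDs between 3 libraries for levels.

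Epithelial markers (Epcam, Cdh1, Vil1, Krt8, Krt18, Krt19 and Cldn7) were present in every group, at a summed 6693 to 13405 CPM. In organoids the 9 immune markers summed to 0.874 to 4.55 CPM, with Cd3g or Igkc at 0 in each group, and the 6 mesenchymal markers to 0.105 to 36.5 CPM. The highest mesenchymal sum belonged to EtOH library 2 at day 7. In IECs, however, immune markers summed to 1649 to 2969 CPM and mesenchymal markers to 12.8 to 960.3 CPM, in overlapping ranges for both genotypes. The mesenchymal overlap rests on VillinCreERT2 library 2 with 880 CPM. VillinCreERT2 libraries 1 and 3 were at 12.8 and 54.9 CPM, below the knockout libraries at 960, 599 and 452 CPM. In each comparison at most 2 immune markers and 1 mesenchymal marker were called. None of the marker lists shares a gene with the module.

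The promoters of 4 members are shown because fatty acid oxidation genes are textbook targets of PPAR receptors, which bind a direct repeat of AGGTCA with a spacer of 1 base. In the difference of the responses at day 10 and day 3 described later, Hadh was the most raised gene of the mitochondrial arm and Acacb the most lowered member, and Slc25a20 and Etfa are the called genes of that arm whose window holds the repeat. The sequences are those of RefSeq on GRCm38.p6, each from 250 bases before to 50 bases after a start listed there, 5′ to 3′ on the strand of the gene, with the closest match to the repeat in capitals where at most 2 of its 12 fixed letters differed. The start used for Acacb lies 18983 bases inside the gene as GENCODE annotates it, and that for Slc25a20 48 bases, whereas those of Hadh and Etfa are at the start of the gene.
Hadh (chr3:131272052-131272351, minus strand): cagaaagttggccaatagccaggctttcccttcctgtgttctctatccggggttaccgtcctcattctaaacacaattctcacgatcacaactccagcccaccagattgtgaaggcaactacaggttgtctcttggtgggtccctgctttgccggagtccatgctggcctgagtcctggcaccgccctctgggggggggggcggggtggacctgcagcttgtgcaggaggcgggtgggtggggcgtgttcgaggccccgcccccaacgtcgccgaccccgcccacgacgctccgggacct
Acacb (chr5:114165268-114165567, plus strand): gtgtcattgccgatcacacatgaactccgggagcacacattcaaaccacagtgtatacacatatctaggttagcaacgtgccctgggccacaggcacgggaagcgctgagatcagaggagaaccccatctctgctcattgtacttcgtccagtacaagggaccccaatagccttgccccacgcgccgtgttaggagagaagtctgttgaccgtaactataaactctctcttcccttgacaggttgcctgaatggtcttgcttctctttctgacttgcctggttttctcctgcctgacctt
Slc25a20 (chr9:108661886-108662185, plus strand): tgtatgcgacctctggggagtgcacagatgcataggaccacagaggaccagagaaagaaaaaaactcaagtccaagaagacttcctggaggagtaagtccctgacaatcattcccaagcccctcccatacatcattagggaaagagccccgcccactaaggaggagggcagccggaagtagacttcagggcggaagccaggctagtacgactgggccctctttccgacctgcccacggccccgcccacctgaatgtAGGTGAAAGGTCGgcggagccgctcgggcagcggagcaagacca
Etfa (chr9:55512194-55512493, minus strand): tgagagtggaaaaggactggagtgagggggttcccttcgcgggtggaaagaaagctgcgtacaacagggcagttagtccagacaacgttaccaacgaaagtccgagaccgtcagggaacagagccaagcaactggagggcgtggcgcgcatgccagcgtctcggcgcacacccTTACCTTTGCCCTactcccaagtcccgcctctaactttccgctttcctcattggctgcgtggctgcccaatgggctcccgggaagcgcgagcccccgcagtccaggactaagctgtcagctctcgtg

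At least 1 promoter was matched for 32 of the 37 genes, the exceptions being Decr1, Acaa2, Hsd17b4, Crat and Angptl4; Abcd3, Acox2 and Bdh1 have 2, which gives 35 promoters. The core AGGTCA, searched on both strands (TGACCT on the other), occurred in 6 of the 35, or 17.1%, and in 16.3% of all 32851 promoters of the same length. The repeat AGGTCANAGGTCA, with up to 2 differing letters and on both strands, occurred in 5 of the 35, or 14.3% (those of Slc25a20, Echs1, Etfa and Acot12 and 1 of Acox2), and in 3.86% of all promoters. The core is a part of the repeat, but with differing letters allowed a match to the repeat need not hold it. Only the promoters of Echs1 and Acot12 had both. A match describes the letters only, and the window says nothing about binding.

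Per kilobase of exon, Hadh, the short-chain 3-hydroxyacyl-CoA dehydrogenase, had the highest level of the module in every group of the time course, for example 130.5 CPM per kb with EtOH at day 10. Acaa2, the mitochondrial thiolase, and Etfa, a subunit of the electron transfer flavoprotein, were next at that day with 88.7 and 87 CPM per kb. In VillinCreERT2 organoids Acaa2 and Hadh were close, at 136 and 131 CPM per kb. In VillinCreERT2 IECs Hadh led again with 192 CPM per kb, and Hsd17b4, the peroxisomal D-bifunctional protein, reached 101 CPM per kb. The low end differed between the systems. Acot12, a cytosolic acetyl-CoA hydrolase, was at most 1.48 CPM in any organoid library but 59.2 to 81.9 CPM in IECs. Pdk4, the kinase that turns off pyruvate dehydrogenase, was at most 0.937 CPM in organoids and 21.5 to 58.9 CPM in IECs. Organoids and IECs were not tested against each other, because they differ in table, culture and induction.

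To follow the module from the first days after induction, 4-OHT and EtOH organoids were compared at each day, and the first change was a fall. At day 3, 10 of the 35 members tested were lower and 1 was higher, where 6.42% of all genes tested were called higher and 5.95% lower. The mitochondrial arm had a median log2 fold change of -0.40 and the peroxisomal arm of -0.31, against -0.02 for all genes, and 16 of 17 and 9 of 10 values were negative. The members called lower were 6 of the 17 mitochondrial genes (Acadm, Hadh, Hadhb, Acaa2, Eci1 and Decr1), Acaa1b and Pex11a of the peroxisome and, outside the arms, Mlycd, which degrades malonyl-CoA, and Crat, the carnitine acetyltransferase.

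Hadh was at 372, 401 and 397 CPM with 4-OHT and at 798, 712 and 741 CPM with EtOH. The groups lay far apart, with the lowest EtOH library well above the highest 4-OHT library (log2 fold change -0.94 ± 0.08 SE, adjusted p = 3.4e-10). Acaa2 was at 56.8, 63.3 and 67.3 CPM with 4-OHT and at 129, 114 and 116 CPM with EtOH, again with no overlap (log2 fold change -0.93 ± 0.08 SE, adjusted p = 1.1e-10). Crat was at 35.7, 38.3 and 35.9 CPM with 4-OHT and at 63.9, 56 and 61.3 CPM with EtOH (log2 fold change -0.72 ± 0.09 SE, adjusted p = 4.4e-07). These 3 had the largest falls among members with at least 50 counts on average. Acadm, the medium-chain dehydrogenase, fell by 0.70 ± 0.07 and Eci1, which shifts double bonds for the cycle, by 0.68 ± 0.06 on the log2 scale. Acaa1b, a peroxisomal thiolase with a close copy in Acaa1a, rested on 2, 2 and 3 counts with 4-OHT and 18, 7 and 7 with EtOH, and its call ended without EtOH library 1 (-1.67).

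4 further calls at day 3 lay at the fold cutoff and depended on single libraries and on the scaling. With upper quartile normalization all 4 ended (Decr1 -0.57, Hadhb -0.58, Mlycd -0.56 and Pex11a -0.55), and all but Hadhb ended with the groups compared alone. Acaa1b did not pass the filter on low counts with the groups compared alone. Under each of these settings 7 members in place of 11 were called. Decr1, the dienoyl-CoA reductase, went from -0.61 to -0.55 without EtOH library 1 and to -0.57 without 4-OHT library 1. Hadhb, the thiolase subunit of the trifunctional protein, went from -0.62 to -0.54 without 4-OHT library 3. Mlycd went from -0.59 to -0.51 without EtOH library 1 and to -0.54 without 4-OHT library 2. Pex11a, which drives peroxisome division, went from -0.59 to -0.55, -0.53 and -0.54 without EtOH library 3, 4-OHT library 1 or 4-OHT library 3. All of them kept their direction.

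The only member called higher at day 3 was Acacb, acetyl-CoA carboxylase 2, which makes the malonyl-CoA that restrains entry of fatty acids into mitochondria. Acacb was at 11.9, 17 and 12.8 CPM with 4-OHT and at 0.432, 0.478 and 0.798 CPM with EtOH, a 24.2-fold difference (log2 fold change 4.60 ± 0.41 SE, adjusted p = 1.6e-08). The EtOH libraries held only 8, 9 and 15 counts, so the size of the fold is loosely set. Bdh1, a ketone body dehydrogenase, was higher by less than the fold cutoff (log2 fold change 0.28 ± 0.07, adjusted p = 0.0015).

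The fall at day 3 went along with lower enterocyte markers (Alpi, Apoa1, Apoa4, Apob, Sis, Lct, Treh, Anpep and Mttp). Their summed level was 2974 to 3480.3 CPM with 4-OHT and 6259 to 6783 CPM with EtOH, and 6 of the 9 were called lower (median log2 fold change -1.20). Their part in the result was not tested, and in bulk RNA fewer cells of a type and less RNA per cell cannot be told apart. The arms moved by a smaller median than these markers. The Paneth cell markers (Lyz1, Mmp7, Ang4, Itln1 and Defa24) overlapped in sum (3842 to 4591 against 3531 to 4133 CPM). Of the crypt and cycling markers (Lgr5, Olfm4, Ascl2, Mki67, Top2a, Pcna and Ccnb1) 1 of 7 was called higher, and of the goblet cell markers (Muc2, Tff3, Clca1, Fcgbp and Zg16) 1 of 5 lower. Among 62 other genes of the pathway tested, 3 were higher and 14 lower. Fabp1, the liver-type fatty acid binding protein, had a log2 fold change of -1.93 ± 0.20, the receptor gene Ppara of -1.36 ± 0.15, Hnf4g, a nuclear receptor of enterocytes, of -1.35 ± 0.13, and Slc27a2, a fatty acid transporter, of -1.08 ± 0.10. Acot4 (-1.30 ± 0.30) and Acad11 (-1.07 ± 0.15) were also lower. The acyl-CoA synthetase Acsl4 rose by 2.02 ± 0.14 and the lipid droplet gene Cidec by 1.28 ± 0.15.

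**Figure D1:**
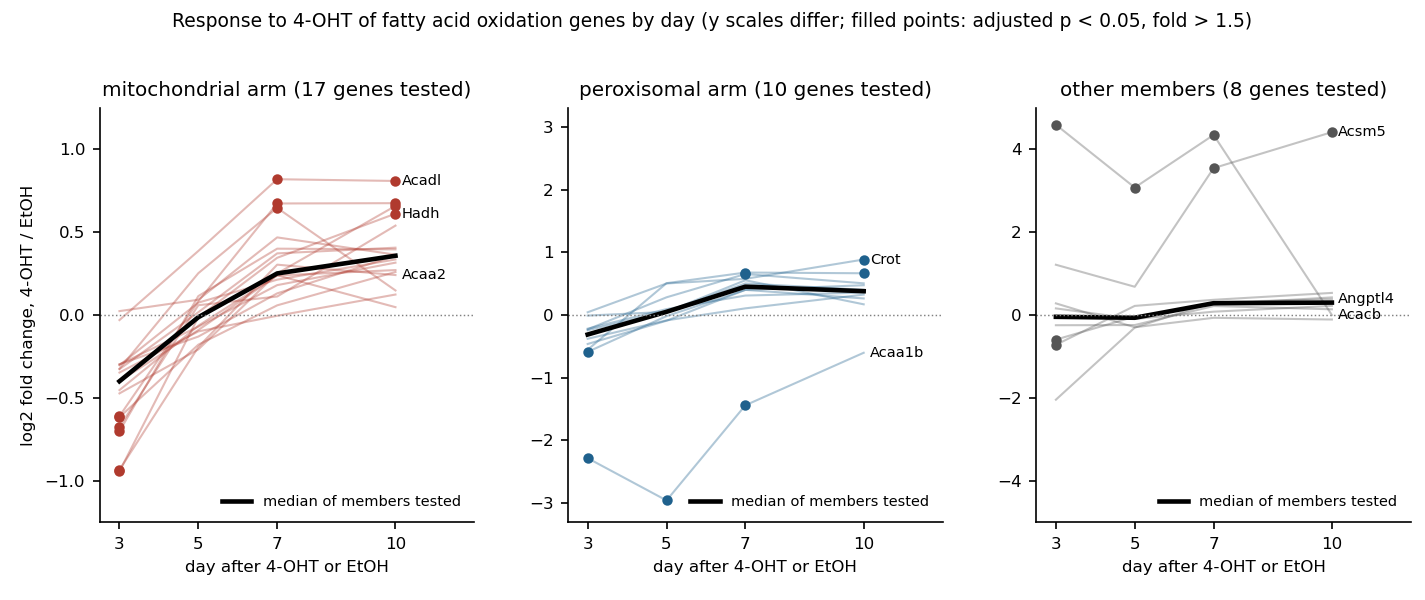
Log2 fold change of 4-OHT over EtOH on the vertical axis against the day on the horizontal axis, for the mitochondrial arm, the peroxisomal arm and the other members; each thin line is a gene, the thick line is the median of the members tested, and filled points are called genes. The medians of both arms start below 0 at day 3 (-0.40 and -0.31) and lie above 0 at day 10 (0.36 and 0.38), while Acacb falls from the top of its panel to 0.

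At day 5 the fall was no longer seen. The medians were -0.01 in the mitochondrial and 0.05 in the peroxisomal arm, whose signs depended on the setting (ranges -0.13 to 0.03 and -0.05 to 0.10 over 12 alternatives). 1 member was higher and 1 lower of 35, where 8.58% of all genes tested were called higher and 4.62% lower; without EtOH library 2, 4 members were called. Summed enterocyte markers overlapped (8949.8 to 9289 CPM with 4-OHT, 8052 to 11332 with EtOH). Paneth markers, by contrast, summed to 2449.7 to 2772 CPM with 4-OHT and 4681 to 5885 with EtOH, with 5 of 5 called lower, and 5 of 7 crypt and cycling markers and 1 of 5 goblet markers were lower. Of 9 enterocyte markers, 1 was higher and 1 lower. Acacb was at 3.9, 6.4 and 3.64 CPM with 4-OHT and at 0.433, 0.354 and 0.834 CPM with EtOH, which was still an 8.45-fold difference with no overlap (log2 fold change 3.08 ± 0.46 SE, adjusted p = 2.2e-05). Acaa1b was lower on 3, 5 and 3 counts with 4-OHT against 22, 38 and 31 with EtOH (adjusted p = 2.3e-05). Of 62 other pathway genes, 4 were higher and 2 lower. Cd36, the fatty acid uptake receptor, rose by 2.27 ± 0.16, and Fabp1 fell by 1.25 ± 0.19, both on the log2 scale.

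At day 7 members of both arms were higher. 7 of 35 members were called higher and 1 lower, where 9% of all genes tested were called higher and 9.25% lower, so that the share of members called lower was below that of all genes and the share called higher above it. The medians were 0.25 and 0.45. Acadl was at 198, 186 and 162 CPM with 4-OHT and at 101, 109.5 and 99.4 CPM with EtOH, and the 3 values of the long-chain dehydrogenase with 4-OHT all exceeded those with EtOH (log2 fold change 0.82 ± 0.08 SE, adjusted p = 3.2e-09). Acaa1a was at 109.7, 95.8 and 82.5 CPM with 4-OHT and at 64.2, 58.3 and 57.6 CPM with EtOH (log2 fold change 0.68 ± 0.10 SE, adjusted p = 2.4e-06), and this call of the peroxisomal thiolase ended without 4-OHT library 1 (0.56). Acacb was at 5.82, 14.2 and 11 CPM with 4-OHT and at 0.454, 0.0989 and 0.964 CPM with EtOH (log2 fold change 4.35 ± 0.43 SE, adjusted p = 4.3e-08), with wide spread inside both groups.

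The remaining calls at day 7 were Decr1 (0.67 ± 0.08), Decr2, its peroxisomal counterpart (0.65 ± 0.08), Cpt1a, the gatekeeper of mitochondrial entry (0.65 ± 0.07), and Acsm5, a mitochondrial medium-chain acyl-CoA synthetase, with 41, 37 and 26 counts against 4, 3 and 2. The call of Cpt1a ended without EtOH library 1 (0.57). Acaa1b was the member called lower, on 7, 11 and 6 counts with 4-OHT against 29, 23 and 17. Enterocyte markers summed to 12066 to 13961 CPM with 4-OHT and 8855 to 10882 with EtOH, and 2 of 9 were called higher. Paneth markers were at 1764 to 1964 against 4739 to 5772 CPM, with 5 of 5 called lower (median -1.31), and crypt and cycling markers at 769 to 1205 against 2185 to 2569 CPM, with 6 of 7 lower (median -0.80). The part of these markers in the result was not tested. Of 62 other pathway genes, 13 were called, all of them higher. They include Cd36 (2.41 ± 0.15), the coactivator gene Ppargc1a (1.24 ± 0.15) and, of peroxisomal alpha-oxidation, Phyh (1.08 ± 0.13) and Hacl1 (1.12 ± 0.24). Vnn1 was at 8, 6 and 8 counts with 4-OHT and at 0 in the 3 EtOH libraries.

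At day 10 most members of both arms were again above EtOH, and Acacb was not called (adjusted p = 1 by edgeR). 7 of 35 members were called higher and 0 lower, where 8.86% of all genes tested were called higher and 6.92% lower. By edgeR 27 members had an unadjusted p under 0.05 in either direction, as did 7767 of all 15447 genes tested. DESeq2 called 0 members lower. All 17 mitochondrial and 9 of 10 peroxisomal values were positive, with medians of 0.36 and 0.38 against 0.02 for all genes. Crot was at 116, 116 and 114 CPM with 4-OHT and at 60.9, 61.6 and 64.9 CPM with EtOH, so that this peroxisomal carnitine octanoyltransferase showed hardly any spread within a group (log2 fold change 0.88 ± 0.08 SE, adjusted p = 6.4e-10). Acadl was at 186, 183 and 182 CPM with 4-OHT and at 104, 104 and 106 CPM with EtOH (log2 fold change 0.81 ± 0.08 SE, adjusted p = 3.6e-09). Acsm5 was at 3.62, 3.37 and 2.99 CPM with 4-OHT and at 0.0968, 0.253 and 0.101 CPM with EtOH (log2 fold change 4.42 ± 0.43 SE, adjusted p = 1.3e-09), where the EtOH libraries held 2, 5 and 2 counts. Cpt1a (0.15 ± 0.07, adjusted p = 0.079) and Decr2 (0.50 ± 0.08, under the fold cutoff), which were called at day 7, were not called at day 10.

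Hadh was now higher, at 1052, 999 and 925 CPM with 4-OHT and 660.0, 633 and 655 CPM with EtOH (log2 fold change 0.61 ± 0.08 SE, adjusted p = 5.2e-07), a call that ended without 4-OHT library 1 (0.57). Etfb, the other subunit of the electron transfer flavoprotein, rose by 0.66 ± 0.11, and its call ended without EtOH library 1 (0.55). Acaa1a (0.67 ± 0.09) and Decr1 (0.68 ± 0.08) were higher as at day 7. Acacb was at 0.213, 0.316 and 0.464 CPM with 4-OHT and 0.242, 0.202 and 0.558 CPM with EtOH, in overlapping ranges. Enterocyte markers summed to 8833 to 11000.2 CPM with 4-OHT and 7115 to 8871 with EtOH, and 4 of 9 were called higher with a median of 0.45. At the same day Paneth markers summed to 2080.1 to 2467 against 7973 to 8149.7 CPM (5 of 5 lower, median -1.83) and crypt and cycling markers to 1671 to 1870.3 against 3302 to 3588 CPM (5 of 7 lower, median -0.97), and 1 of 5 goblet markers was lower. The part of any of these lists in the rise was not tested. Of 62 other pathway genes, 10 were higher and 1 lower. Cd36 rose by 3.07 ± 0.15, the intestinal fatty acid binding protein Fabp2 by 1.44 ± 0.08 and Ppargc1a by 1.21 ± 0.18.

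**Figure D2:**
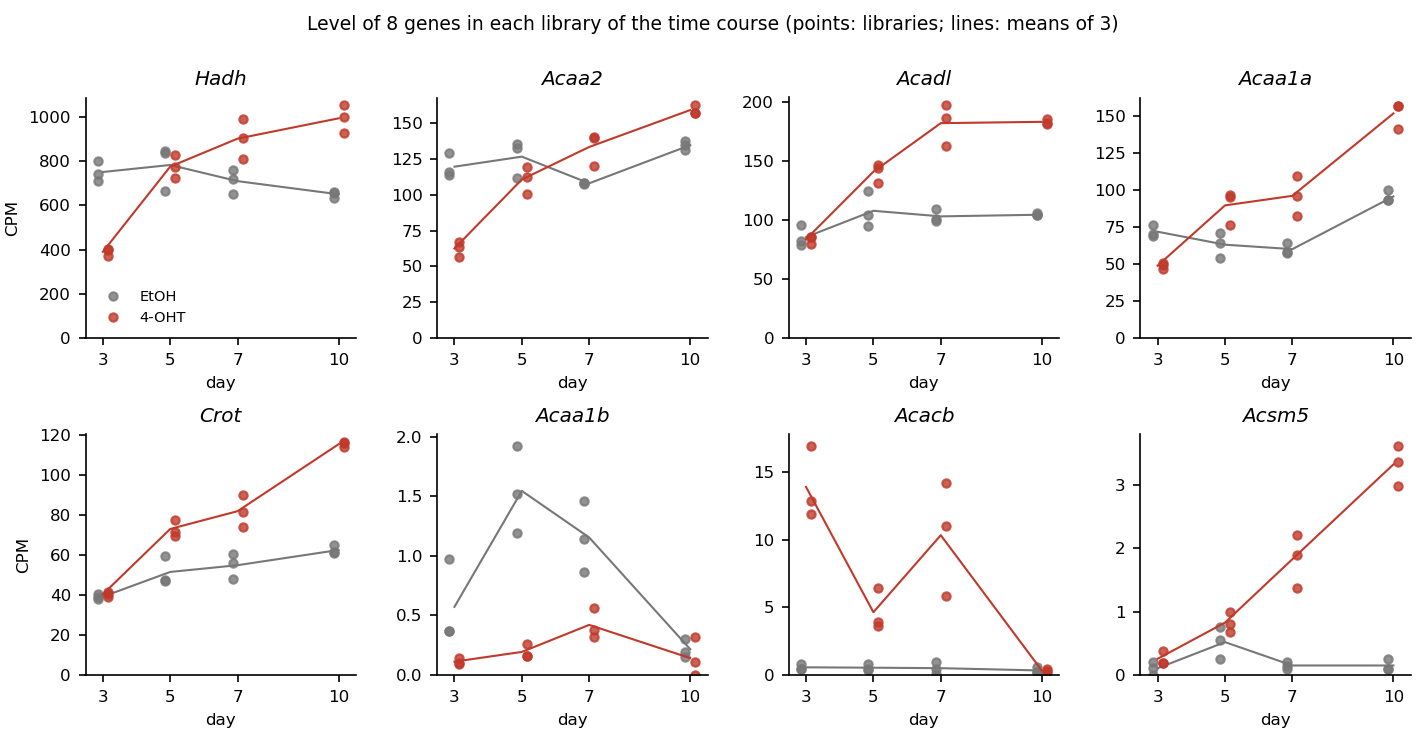
CPM on the vertical axis against the day on the horizontal axis for 8 members; points are libraries (EtOH grey, 4-OHT red) and lines join the means of 3. Hadh and Acaa2 with 4-OHT lie below EtOH at day 3, Hadh lies above it at day 10, and Acacb is high with 4-OHT at days 3 to 7 only.

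The difference between the responses at day 10 and day 3 was tested as an interaction within the same fit, over 24 libraries. The response at day 10 exceeded that at day 3 for 23 of 35 members and was below it for 1, where 13.9% of all genes tested were called higher and 12.4% lower. All 17 mitochondrial and all 10 peroxisomal differences were positive, with medians of 0.73 and 0.79 log2 units against 0.03 for all genes, and 13 and 7 were called. The difference was 1.56 ± 0.12 for Hadh (adjusted p = 8.3e-12), 1.29 ± 0.11 for Decr1, 1.22 ± 0.09 for Eci1 and 1.18 ± 0.11 for Acaa2. In the peroxisomal arm it was 1.22 ± 0.14 for Acaa1a and 0.94 ± 0.13 for Hsd17b4, and outside the arms 1.25 ± 0.13 for Crat. Acacb was the member called in the other direction (-4.60 ± 1.01, adjusted p = 7.8e-04), and Bdh1 had a negative difference under the fold cutoff (-0.39 ± 0.10, adjusted p = 0.0013). The calls of Acads, the short-chain dehydrogenase (0.61), and Acsm5 (3.20) depend on single libraries and, for Acads, on the scaling (0.56 with upper quartile normalization), with Acads at 0.56, 0.58 and 0.58 without EtOH library 1 of day 3, 4-OHT library 2 of day 10 or 4-OHT library 3 of day 3, and Acsm5 at 2.28 without EtOH library 3 of day 3. Enterocyte markers differed in the same sense (median 1.30, 6 of 9 called), whereas 5 of 5 Paneth and 6 of 7 crypt and cycling markers were lower (medians -2.11 and -1.38), 1 goblet marker was higher and 1 lower, and 2 of 7 epithelial markers were higher. Of 62 other pathway genes, 31 were called higher and 4 lower.

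The EtOH organoids of day 10 were also set against those of day 3, where time in culture and separate collection cannot be told apart. In these controls 5 of 35 members were higher at day 10 and 1 was lower, where 16% of all genes tested were called higher and 22.4% lower, so that the members' share was below that of all genes in both directions. Among the markers, 2 of 9 enterocyte, 3 of 7 crypt and cycling, 1 of 5 Paneth and 2 of 5 goblet genes were called higher and 1 enterocyte gene lower. Acot1 was at 63.1, 55.1 and 66.1 CPM at day 10 and at 21.2, 18.7 and 20.2 CPM at day 3, the largest change among the members called in the controls (log2 fold change 1.62 ± 0.13 SE, adjusted p = 1.4e-10); Acot1 and Acot2 are close copies among the thioesterase genes whose reads may be split between them. Abcd3 was at 216, 209.7 and 211 CPM at day 10 and at 120.0, 113 and 121 CPM at day 3 (log2 fold change 0.85 ± 0.07 SE, adjusted p = 9.0e-12), where ABCD3 imports acyl-CoA into peroxisomes. Mlycd was at 36.7, 39 and 39 CPM at day 10 and at 24.7, 20.6 and 21.3 CPM at day 3 (log2 fold change 0.78 ± 0.08 SE, adjusted p = 2.5e-09). Etfa (0.76 ± 0.06) and Crot (0.67 ± 0.09) were also higher. Acaa1b was lower on 4, 3 and 6 counts against 18, 7 and 7, and its call ended without EtOH library 1 or 2 of day 10 or EtOH library 1 of day 3 (-1.30, -1.18 and -0.78).

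Of 62 other pathway genes, 13 were higher and 6 lower over time in EtOH. Ppargc1a fell by 2.23 ± 0.17 on the log2 scale. Pdk2 (-1.61 ± 0.12), Ppard (-1.14 ± 0.08) and Phyh (-1.23 ± 0.13) were lower, and Fabp2 (1.65 ± 0.09), Acot9 (1.59 ± 0.11), Acot4 (1.43 ± 0.25) and Cidec (1.03 ± 0.15) were higher. Bdh2 was higher on 17, 3 and 7 counts against 1, 2 and 0.

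Summed over its genes, the mitochondrial arm was at 1479.7 to 1572 CPM with 4-OHT and 2193 to 2392 CPM with EtOH at day 3, and at 2960.3 to 3173 and 2316 to 2348 CPM at day 10. The peroxisomal arm was at 453 to 489 and 571 to 601 CPM at day 3, and at 1040.0 to 1138 and 763 to 790.3 CPM at day 10. In none of these 4 cases did the groups overlap.

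**Figure D3:**
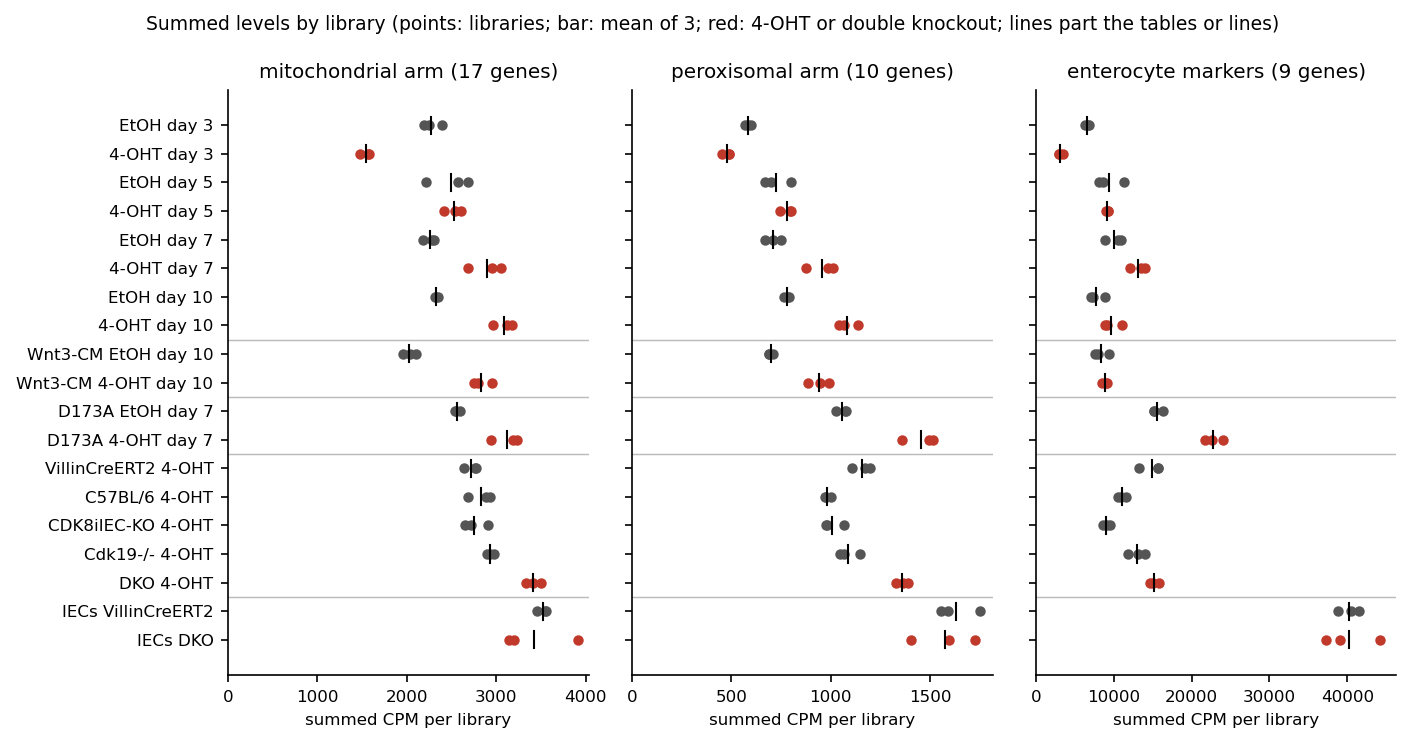
Summed CPM per library (horizontal axis) of the 17 mitochondrial genes, the 10 peroxisomal genes and the 9 enterocyte markers in the 19 groups (vertical axis); points are libraries, bars are means of 3, and red marks 4-OHT in the induced lines or the double knockout. The 4-OHT points of both arms lie left of EtOH at day 3 and right of it at day 10, whereas both IEC groups overlap.

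Whether single or combined loss of the kinases changes the module was asked in the lines collected at day 7 after 4-OHT. Each genotype is a single line there, so line and genotype cannot be told apart in any comparison of these lines. In CDK8iIEC-KO/Cdk19-/- organoids, 6 of 36 members were higher and 2 lower than in VillinCreERT2 organoids, where 11.5% of all genes tested were called higher and 7.95% lower. The medians were 0.29 in the mitochondrial and 0.40 in the peroxisomal arm against -0.00 for all genes. The summed arms did not overlap (3329 to 3498 against 2637 to 2774 CPM and 1329 to 1389 against 1106 to 1199 CPM), whereas the summed enterocyte markers did (14668 to 15796 against 13311 to 15722 CPM). Of the enterocyte genes, however, 2 of 9 were called higher, with a median of 0.32. Paneth markers were at 786 to 817 against 2716 to 2835 CPM, with 5 of 5 called lower (median -1.92), and 2 of 7 crypt and cycling and 1 of 5 goblet markers were lower. Their part in the change of the arms was not tested.

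Acacb was at 11, 18.2 and 13.7 CPM in CDK8iIEC-KO/Cdk19-/- and at 0.806, 1.2 and 1.35 CPM in VillinCreERT2 organoids (log2 fold change 3.67 ± 0.27 SE, adjusted p = 1.5e-09). Acsm5 was at 17.1, 18.2 and 16.6 CPM in CDK8iIEC-KO/Cdk19-/- and at 3.6, 2.73 and 5.09 CPM in VillinCreERT2 organoids (log2 fold change 2.19 ± 0.14 SE, adjusted p = 2.0e-12). Decr1 was at 119, 133 and 135 CPM in CDK8iIEC-KO/Cdk19-/- and at 74.1, 73.8 and 73.8 CPM in VillinCreERT2 organoids (log2 fold change 0.81 ± 0.06 SE, adjusted p = 6.6e-11). All 3 were well separated. Acox2 was at 21.8, 24.2 and 17.8 CPM in CDK8iIEC-KO/Cdk19-/- and at 53.6, 67.4 and 43.9 CPM in VillinCreERT2 organoids (log2 fold change -1.37 ± 0.15 SE, adjusted p = 3.3e-06), and this branched-chain oxidase was thus lower than in the control. Angptl4 was at 11.1, 10.2 and 9.24 CPM in CDK8iIEC-KO/Cdk19-/- and at 17.4, 19.3 and 18.8 CPM in VillinCreERT2 organoids (log2 fold change -0.86 ± 0.11 SE, adjusted p = 4.1e-07), where ANGPTL4 is a secreted inhibitor of lipoprotein lipase. Acadl (0.74 ± 0.07), Acaa1b (0.79 ± 0.15) and Acot12 (2.28 ± 0.49, on 12, 21 and 19 counts against 1, 4 and 7) were the other members called higher. The direction of Angptl4 and the calls of Decr1 and Acaa1b depended on the control line, as given below. Of 63 other pathway genes, 10 were called, all of them higher, with Cd36 at 3.01 ± 0.12, the omega-hydroxylase Cyp4a10 at 4.47 ± 0.36 on 54, 64 and 44 counts against 4, 1 and 3 and Acsl4 at 1.23 ± 0.10.

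How far lines differ without any engineered loss was read from the control lines. C57BL/6 organoids, which carry no Cre, had 3 of 36 members higher and 3 lower than VillinCreERT2 organoids, where 15.5% of all genes tested were called higher and 10.9% lower. They also had 3 of 5 Paneth and 2 of 7 crypt and cycling markers called higher and 4 of 9 enterocyte and 3 of 5 goblet markers lower. Angptl4 was at 1.52, 0.965 and 1.1 CPM in C57BL/6 and at 17.4, 19.3 and 18.8 CPM in VillinCreERT2 organoids (log2 fold change -3.95 ± 0.16 SE, adjusted p = 1.5e-16). Acox2 was at 22.9, 21.8 and 17.2 CPM in C57BL/6 and at 53.6, 67.4 and 43.9 CPM in VillinCreERT2 organoids (log2 fold change -1.42 ± 0.15 SE, adjusted p = 1.7e-06). Acot1 was at 24.6, 27.5 and 27.3 CPM in C57BL/6 and at 67.5, 60.5 and 77.2 CPM in VillinCreERT2 organoids (log2 fold change -1.37 ± 0.10 SE, adjusted p = 5.1e-10). All 3 were lower in the line without Cre. Acaa1b was at 49.7, 59.8 and 59 CPM in C57BL/6 and at 21.8, 22.5 and 27.7 CPM in VillinCreERT2 organoids (log2 fold change 1.23 ± 0.15 SE, adjusted p = 5.0e-06). Acsm5 was at 6.02, 5.96 and 6.98 CPM in C57BL/6 and at 3.6, 2.73 and 5.09 CPM in VillinCreERT2 organoids (log2 fold change 0.73 ± 0.16 SE, adjusted p = 3.4e-04), a call that ended without VillinCreERT2 library 2 (0.54). Decr1 was at 109.8, 114 and 119.8 CPM in C57BL/6 and at 74.1, 73.8 and 73.8 CPM in VillinCreERT2 organoids (log2 fold change 0.63 ± 0.06 SE, adjusted p = 3.6e-09).

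With the mean of both control lines in place of VillinCreERT2, Angptl4 in CDK8iIEC-KO/Cdk19-/- organoids turned from -0.86 to 1.12. Under the same control the calls of Acaa1b and Decr1 ended (0.18 and 0.49), while Acacb (3.97), Acsm5 (1.82) and Acadl (0.85) kept theirs. In all, 10 members were called with that control, 9 higher and 1 lower, and the added ones were Crot (0.76), Acot1 (0.65), Acot2 (0.64) and Bdh1 (0.69). The medians of the arms stayed positive under each of the 13 alternatives, between 0.23 and 0.34 in the mitochondrial and between 0.34 and 0.45 in the peroxisomal arm. Acaa1a, Crot and Hadh, called at day 10 of the time course, had log2 fold changes of 0.50 ± 0.06, 0.51 ± 0.05 and 0.34 ± 0.06 in this comparison, under the fold cutoff. Of 63 other pathway genes, 5 were higher and 9 lower between the control lines, among them Cidec (-1.76 ± 0.11), Vnn1 (-2.02 ± 0.28), Bdh2 (-2.31 ± 0.32), the carnitine transporter Slc22a21 (1.02 ± 0.14) and Cyp4a10 (3.16 ± 0.43).

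CDK8iIEC-KO organoids, which keep Cdk19, were compared with the same control. In CDK8iIEC-KO organoids 2 of 36 were higher and 2 lower than in VillinCreERT2 organoids, where 2.9% of all genes tested were called higher and 4.34% lower, and the medians of the arms were 0.04 and -0.09. With the adjusted p alone and no fold cutoff, 17 of 36 were called. Dropping that cutoff adds calls over all genes too, so the shares above do not apply to this count. Acacb was at 1.45, 3.2 and 3.25 CPM in CDK8iIEC-KO and at 0.806, 1.2 and 1.35 CPM in VillinCreERT2 organoids (log2 fold change 1.23 ± 0.33 SE, adjusted p = 0.0082), with no overlap but far under the level of the double knockout. Acsm5 was at 6.14, 5.95 and 7.01 CPM in CDK8iIEC-KO and at 3.6, 2.73 and 5.09 CPM in VillinCreERT2 organoids (log2 fold change 0.74 ± 0.16 SE, adjusted p = 6.7e-04). Angptl4 was at 8.81, 6.72 and 7.89 CPM in CDK8iIEC-KO and at 17.4, 19.3 and 18.8 CPM in VillinCreERT2 organoids (log2 fold change -1.24 ± 0.11 SE, adjusted p = 5.5e-09). Acox2 was at 33.2, 33.2 and 39.1 CPM in CDK8iIEC-KO and at 53.6, 67.4 and 43.9 CPM in VillinCreERT2 organoids (log2 fold change -0.65 ± 0.14 SE, adjusted p = 0.0033). Without VillinCreERT2 library 2 the calls of Acsm5 and Acox2 ended (0.55 and -0.47), and 2 members were left. Against the mean of both control lines, Angptl4 turned to 0.73 and Acox2 to 0.063, the call of Acsm5 ended (0.38), and Acot12 (1.24) and Bdh1 (0.65) were called higher. Enterocyte markers were lower, with 5 of 9 called and a median of -0.59, as were 3 of 5 goblet markers, and 1 of 7 crypt and cycling markers was higher. Of 63 other pathway genes, 2 were higher and 5 lower, with Cd36 at 1.44 ± 0.13, Cyp4a10 at 1.68 ± 0.52 and Bdh2 at -1.44 ± 0.26.

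Loss of CDK19 alone was compared with C57BL/6 organoids, both without Cre. Here 2 of 36 members were higher and 0 lower, where 2.86% of all genes tested were called higher and 2.39% lower. By edgeR 16 members had an unadjusted p under 0.05 in either direction, and DESeq2 called 0 lower. More of all genes also pass the unadjusted cutoff, so the shares above do not apply to the 16. The medians of the arms were 0.11 and 0.14. Bdh1 was at 208, 208 and 207 CPM in Cdk19-/- and at 126, 136 and 129 CPM in C57BL/6 organoids (log2 fold change 0.67 ± 0.05 SE, adjusted p = 2.2e-10), where BDH1 interconverts the ketone bodies. Angptl4 was at 8.8, 6.57 and 7.65 CPM in Cdk19-/- and at 1.52, 0.965 and 1.1 CPM in C57BL/6 organoids (log2 fold change 2.69 ± 0.19 SE, adjusted p = 2.3e-11). Against the mean of both control lines Bdh1 was at 0.38 and no longer called, whereas Acot1 was called lower (-0.68). Acacb was at 1.5, 1.34 and 1.06 CPM against 1.14, 0.568 and 0.523 CPM. Among the markers, 2 of 7 crypt and cycling and 1 of 5 Paneth genes were called lower. Of 63 other pathway genes, 2 were called, both higher, with Vnn1 at 1.54 ± 0.30.

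**Figure D4:**
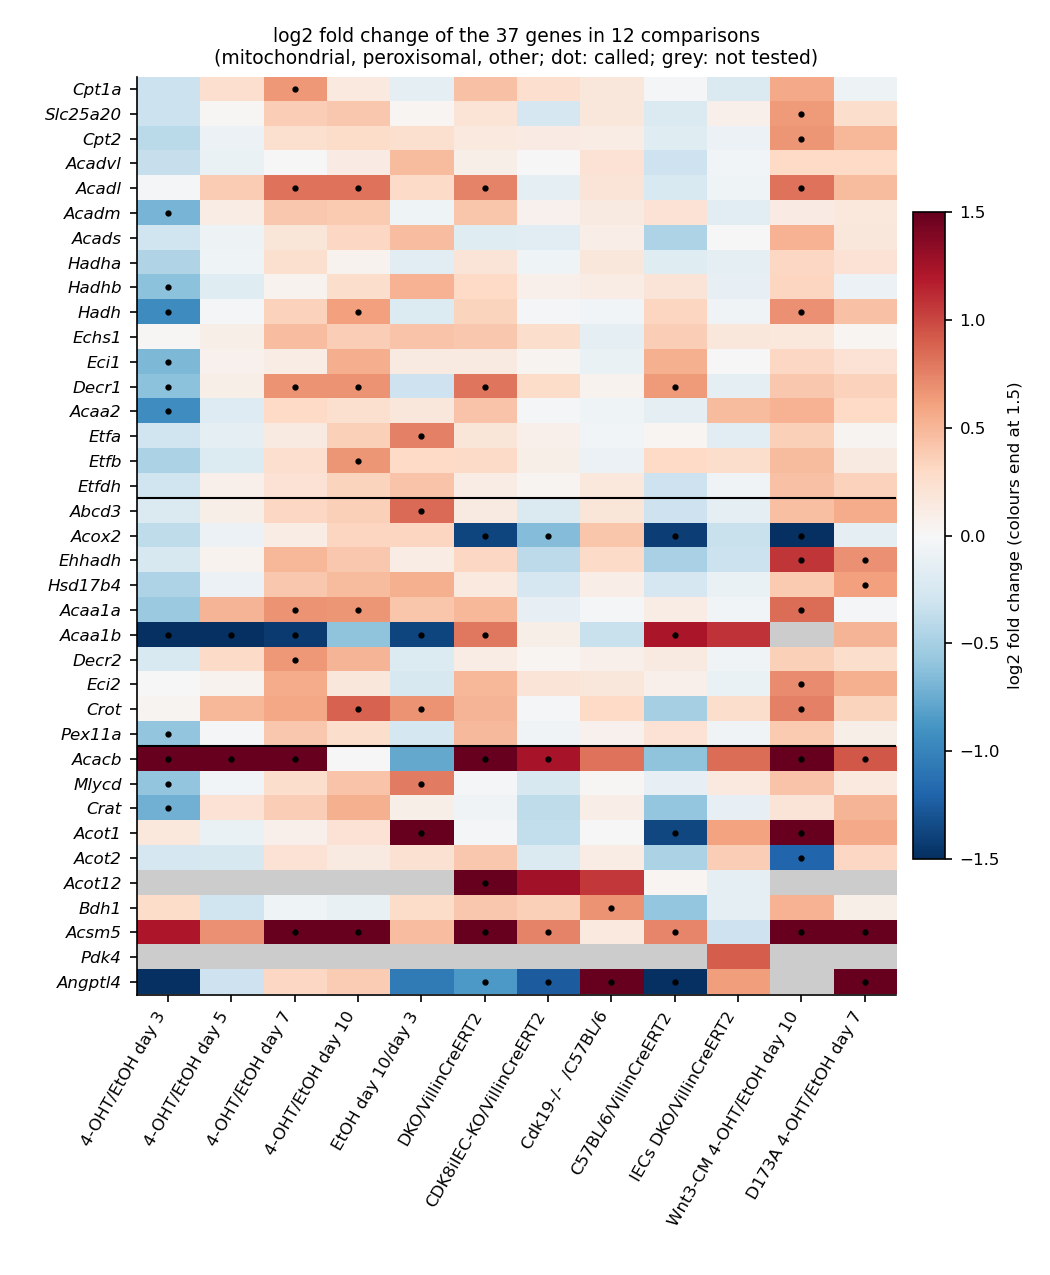
Log2 fold change of the 37 members (rows, by arm) in 12 comparisons (columns); red is higher and blue lower in the first-named group, the colours end at 1.5, dots mark called members and grey members that were not tested. The day 3 column is blue and the day 7, day 10 and Wnt3-CM columns red over most of both arms, and the IEC column has no dot.

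In IECs, which were isolated from mice and not cultured, neither arm differed detectably between CDK8iIEC-KO/Cdk19-/- and VillinCreERT2 mice. 0 of 37 members were called higher and 0 lower by edgeR, where 0.646% of all genes tested were called higher and 0.856% lower. 3 members had an unadjusted p under 0.05 by edgeR, a cutoff that more of all genes also pass. DESeq2 called 2 members and 859 genes in all, and edgeR without the filter on low counts called 2 members and 1103 genes. The medians were -0.06 and -0.08, and the summed arms overlapped (3148 to 3912 against 3461 to 3558 CPM, and 1403 to 1726 against 1558 to 1750.2 CPM).

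Acaa1b was at 69.9, 47.4 and 45.2 CPM in CDK8iIEC-KO/Cdk19-/- and at 31.1, 23.9 and 21.4 CPM in VillinCreERT2 IECs, so that the groups did not overlap, but the test over all genes did not call it (log2 fold change 1.09 ± 0.21 SE, adjusted p = 0.069). Pdk4 was at 38.9, 31.7 and 58.9 CPM in CDK8iIEC-KO/Cdk19-/- and at 23.6, 21.5 and 24.2 CPM in VillinCreERT2 IECs, also without overlap (log2 fold change 0.90 ± 0.22 SE, adjusted p = 0.11). These are the members that DESeq2 and the unfiltered fit called. Acacb was at 6.67, 22.7 and 6.42 CPM in CDK8iIEC-KO/Cdk19-/- and at 5.92, 6.79 and 7.32 CPM in VillinCreERT2 IECs, and the value of the knockout mean rests on library 2 (log2 fold change 0.84 ± 0.52 SE, adjusted p = 0.41). Acaa2 was at 270.1, 215 and 380.3 CPM in CDK8iIEC-KO/Cdk19-/- and at 199, 223 and 202 CPM in VillinCreERT2 IECs (log2 fold change 0.47 ± 0.20 SE, adjusted p = 0.25). Hadh was at 872, 821 and 1064 CPM in CDK8iIEC-KO/Cdk19-/- and at 949, 985 and 937 CPM in VillinCreERT2 IECs (log2 fold change -0.06 ± 0.12 SE, adjusted p = 0.82), with overlap in both directions. Acsm5 was at 6.88, 6.84 and 10.2 CPM in CDK8iIEC-KO/Cdk19-/- and at 9.65, 9.72 and 10.4 CPM in VillinCreERT2 IECs (log2 fold change -0.31 ± 0.19 SE, adjusted p = 0.39), and the rise of organoids was not seen.

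Log2 fold changes in IECs had larger errors than in organoids for the 2 members compared, with SEs of 0.12 against 0.08 for Acadl and of 0.12 against 0.08 for Hadh at day 10 of the time course. Enterocyte markers overlapped (37216 to 44253 against 38755 to 41540.0 CPM), and immune and mesenchymal markers had medians of 1.35 and 1.11 with no gene called. Paneth markers were at 897 to 1975 against 3613 to 5908 CPM (3 of 5 called lower, median -2.07), goblet markers at 5028 to 7227 against 12017 to 14424 CPM (2 of 5 lower, median -0.62) and crypt and cycling markers at 385 to 633 against 849.6 to 1175 CPM (1 of 7 lower, median -0.87). None of these sums overlapped between the genotypes, and epithelial markers did not either (8786 to 9697 against 10426 to 10726 CPM). Of 64 other pathway genes, 2 were called, both higher. These calls were not followed with single libraries left out, where the count over all genes in IECs moved widely. Cd36 was at 225, 171 and 213 CPM against 58.3, 72.9 and 73.3 CPM (log2 fold change 1.57 ± 0.15 SE, adjusted p = 0.014), and Cyp4a10 at 59.2, 27.7 and 37.3 against 10.4, 5.92 and 5.56 CPM (log2 fold change 2.51 ± 0.37 SE, adjusted p = 0.042).

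Whether the response persists when Wnt3 is supplied was asked in Wnt3-CM at day 10. Of 33 members tested, 11 were higher and 2 lower with 4-OHT, where 9.45% of all genes tested were called higher and 7.42% lower; Acaa1b, Acot12, Pdk4 and Angptl4 did not pass the filter on low counts. The medians were 0.44 and 0.45 against 0.00 for all genes, and neither summed arm overlapped (2746 to 2950.4 against 1958 to 2099 CPM and 887 to 993 against 692 to 711 CPM). Summed enterocyte markers overlapped (8535 to 9163 against 7654 to 9361 CPM), although 6 of the 9 genes were called higher, with a median of 0.66. Paneth markers summed to 1843 to 2258 against 6716 to 7428 CPM (5 of 5 lower, median -1.82), 2 of 5 goblet markers were lower, and epithelial markers summed to 9891 to 10686 against 12916 to 13405 CPM with 2 of 7 lower. Of 7 crypt and cycling markers, 1 was higher and 1 lower (median 0.02). Their part in the result was not tested.

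Acot1 was at 15, 14.8 and 13.8 CPM with 4-OHT and at 3.62, 4.46 and 3.21 CPM with EtOH (log2 fold change 1.94 ± 0.13 SE, adjusted p = 1.2e-10). Ehhadh was at 122, 131 and 120.0 CPM with 4-OHT and at 61.1, 58.1 and 57.7 CPM with EtOH, so that this peroxisomal L-bifunctional enzyme was far apart between the groups (log2 fold change 1.08 ± 0.07 SE, adjusted p = 2.2e-11). Acaa1a was at 119.5, 107 and 103 CPM with 4-OHT and at 63.1, 61.9 and 59.8 CPM with EtOH (log2 fold change 0.83 ± 0.07 SE, adjusted p = 3.2e-09). On the mitochondrial side the entry steps Slc25a20 (0.64 ± 0.07) and Cpt2 (0.66 ± 0.07) were higher, together with Acadl (0.81 ± 0.08) and Hadh (0.68 ± 0.07). Crot (0.76 ± 0.07) and Eci2 (0.71 ± 0.08) of the peroxisome were higher as well. Acacb (19, 36 and 15 counts against 8, 6 and 8) and Acsm5 (22, 25 and 22 counts against 3, 4 and 2) were higher on few counts.

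2 members were called lower in Wnt3-CM. Acox2 was at 27, 24.3 and 24.9 CPM with 4-OHT and at 78.9, 92.5 and 92.5 CPM with EtOH (log2 fold change -1.79 ± 0.08 SE, adjusted p = 1.4e-13). Acot2 was at 7.2, 7.67 and 6.72 CPM with 4-OHT and at 16.3, 17.1 and 16 CPM with EtOH (log2 fold change -1.19 ± 0.11 SE, adjusted p = 1.0e-08). The thioesterases thus moved apart, Acot1 up and Acot2 down, where the authors' counting could split reads of these close copies. Of 60 other pathway genes, 10 were higher and 4 lower. Cd36 was at 14.3, 15.2 and 14.2 against 0.683, 0.472 and 0.579 CPM (log2 fold change 4.64 ± 0.18 SE, adjusted p = 1.3e-14). Acot4 (2.18 ± 0.16), Fabp2 (2.13 ± 0.10), Fabp1 (2.12 ± 0.19), Ppara (1.21 ± 0.12), Acsl4 (1.08 ± 0.14), the sterol carrier gene Scp2 (1.03 ± 0.07) and Hacl1 (1.01 ± 0.25) were higher, and Cidec was lower (-1.17 ± 0.08).

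The responses with and without Wnt3-CM at day 10 were tested against each other in a joint fit of 12 libraries. They differed in 5 of 33 members, 3 higher and 2 lower in Wnt3-CM, where 7.11% of all genes tested were called higher and 6.21% lower. The median difference was 0.07 in the mitochondrial and 0.09 in the peroxisomal arm. Acot1 (1.72 ± 0.15, adjusted p = 8.1e-08), Ehhadh (0.67 ± 0.09, adjusted p = 6.8e-06) and Bdh1 (0.63 ± 0.09, adjusted p = 1.7e-05) responded more in Wnt3-CM. Acox2 (-2.12 ± 0.11, adjusted p = 1.9e-10) and Acot2 (-1.33 ± 0.16, adjusted p = 2.5e-06) responded in the lower direction in Wnt3-CM, while without it their log2 fold changes were 0.33 ± 0.07 and 0.14 ± 0.13. Of the other pathway genes, 9 of 61 were higher and 6 lower in this test. By the same test 5 of 9 enterocyte and 5 of 7 crypt and cycling markers were higher and 3 of 7 epithelial markers lower. Each medium had EtOH libraries of its own.

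**Figure D5:**
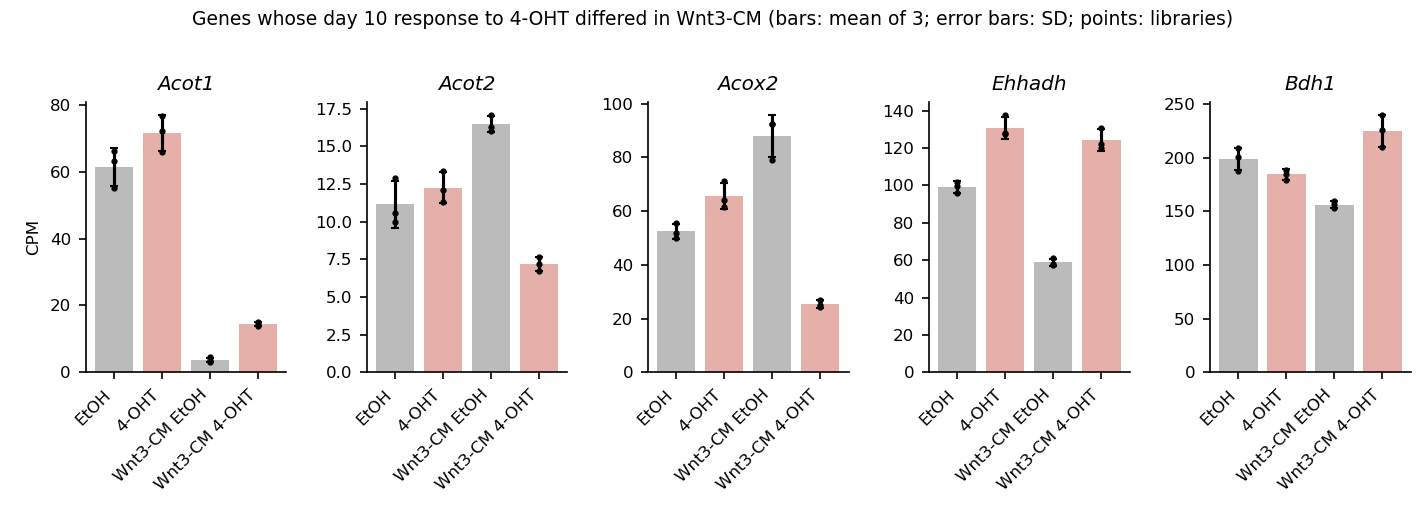
CPM (vertical axis, from 0) of Acot1, Acot2, Acox2, Ehhadh and Bdh1 in the 4 groups of day 10 (horizontal axis), without and with Wnt3-CM and with EtOH or 4-OHT; points are libraries and bars are means of 3. In Wnt3-CM, Acot1 and Ehhadh are higher and Acot2 and Acox2 lower with 4-OHT, with no overlap between the groups.

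Whether the module responds when a kinase-dead CDK19 is the only Mediator kinase left was asked in the Cdk19 ko/D173A line at day 7. Of 35 members, 5 were higher and 0 lower with 4-OHT, where 6.05% of all genes tested were called higher and 6.25% lower. By edgeR 24 members had an unadjusted p under 0.05 in either direction, and DESeq2 called 0 lower. More of all genes also pass the unadjusted cutoff, so the shares above do not apply to the 24. The count of called members rested on few libraries, since it was 12 without 4-OHT library 1. The medians were 0.22 and 0.42, and the summed arms did not overlap (2946 to 3228 against 2536 to 2591 CPM and 1361 to 1516 against 1028 to 1076 CPM). Enterocyte markers were higher too (21764 to 24053 against 15164 to 16266 CPM, 6 of 9 called), while 4 of 5 Paneth markers were lower and 1 higher, 4 of 7 crypt and cycling markers were lower and 2 of 5 goblet markers higher. Their part in the result was not tested.

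Angptl4 was at 2.35, 3.64 and 4.89 CPM with 4-OHT and at 0.245, 0.331 and 0.128 CPM with EtOH (log2 fold change 3.93 ± 0.38 SE, adjusted p = 5.6e-05). Acsm5 was at 14.8, 16.1 and 16.8 CPM with 4-OHT and at 5.41, 4.71 and 4.85 CPM with EtOH (log2 fold change 1.67 ± 0.11 SE, adjusted p = 5.2e-06). Ehhadh was at 219, 238 and 256 CPM with 4-OHT and at 147, 147 and 149 CPM with EtOH (log2 fold change 0.69 ± 0.07 SE, adjusted p = 7.6e-05). In each of these the groups were separate. Hsd17b4 rose by 0.62 ± 0.06, close to the fold cutoff, and its call ended with upper quartile normalization (0.57). Acacb was called on 46, 39 and 60 counts against 25, 23 and 34 (log2 fold change 0.93 ± 0.30 SE, adjusted p = 0.041), and its call ended without EtOH library 1, 2 or 3 or 4-OHT library 3 (0.88, 0.80, 1.07 and 0.62) and with upper quartile normalization (0.89). Of 63 other pathway genes, 17 were called, all of them higher, with Cyp4a10 at 3.42 ± 0.70, Cd36 at 1.91 ± 0.40, Bdh2 at 1.66 ± 0.32 and Acot4 at 1.20 ± 0.07.

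Set against the response of the Cdk19 ko/ko line at day 7, in a joint fit of 12 libraries, the response of the kinase-dead line was higher for 2 and lower for 4 of 35 members, where 4.9% of all genes tested were called higher and 6.25% lower. Angptl4 (3.60 ± 0.78) responded more in the kinase-dead line. For Acaa1b the difference was 1.95 ± 0.46, between responses of opposite sign. Its mean fell from 1.15 to 0.42 CPM in the Cdk19 ko/ko line. In the kinase-dead line it rose from 48.3 to 69.1 CPM and was not called. Acacb (-3.42 ± 0.69), Acsm5 (-1.89 ± 0.37), Cpt1a (-0.73 ± 0.14) and Acaa1a (-0.70 ± 0.14) responded less. The median difference was -0.09 in the mitochondrial and -0.14 in the peroxisomal arm, and the former ranged from -0.14 to 0.00 over 17 alternatives. Of 63 other pathway genes, 2 were higher and 4 lower, and of the markers 3 of 9 enterocyte and 2 of 5 goblet genes were higher and 2 of 5 Paneth genes lower, with 1 Paneth gene higher. Of 7 crypt and cycling genes, 1 was higher and 1 lower. Line and genotype cannot be told apart here, since each genotype is a single line.

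Acacb was followed across all organoid groups. In the Cdk19 ko/ko line its fold was 24.2 at day 3, 8.45 at day 5, 20.4 at day 7 and 1.000 at day 10, and it was 2.93 in Wnt3-CM at day 10 and 1.91 in the kinase-dead line at day 7. In the lines at day 7 it was 14.3 ± 3.66 CPM (SD, n = 3) in CDK8iIEC-KO/Cdk19-/-, 2.63 ± 1.03 in CDK8iIEC-KO, 1.3 ± 0.224 in Cdk19-/-, 1.12 ± 0.28 in VillinCreERT2 and 0.744 ± 0.345 in C57BL/6 organoids. Cdk19-/- and VillinCreERT2 organoids did not differ beyond their spread, and neither did VillinCreERT2 and C57BL/6. Acsm5 was ordered in a like way at the top, with 17.3 ± 0.807 CPM in CDK8iIEC-KO/Cdk19-/- and 2.73 to 8.04 CPM in the other 4 lines.

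6 members passed both cutoffs in none of the 12 comparisons of groups with edgeR. Log2 fold changes ran from -0.35 to 0.47 for Acadvl, the very long-chain dehydrogenase, from -0.46 to 0.52 for Acads, and from -0.45 to 0.31 for Hadha, the other subunit of the trifunctional protein. They ran from -0.15 to 0.47 for Echs1, the short-chain hydratase, and from -0.31 to 0.44 for Etfdh, which passes the electrons on to ubiquinone. Pdk4 was tested in IECs only. Hadha and Hadhb start head to head on chromosome 5, and at day 3 they were at -0.45 ± 0.07 and -0.62 ± 0.10.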

How the data were processed

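RNA-Seq libraries of mouse small intestinal organoids and IECs were read from 4 tables of raw counts per gene, which the authors deposited unnormalized. According to the methods and the submitters' processing notes, 100 bp paired-end reads were aligned to mm10 with STAR 2.5.2 and counted with featureCounts of Subread 1.6.3; strandedness is not given in the sources used here, so reads of overlapping or antisense genes cannot be told apart. 6 IEC columns, whose names hold a letter not found in the labels, were not analysed here. Columns of Wnt3-CM were assigned to groups by name and those of the kinase-dead organoids by elimination.

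Genes were filtered with filterByExpr by group, scaled with TMM and tested with edgeR 4.0.16 (R 4.3.3, robust quasi-likelihood F test); the 24 time course libraries, the 15 day 7 libraries and the other pairs of groups were fitted separately, and differences of responses as contrasts. SEs are the log2 fold change over the root of F. Values per library are given for the 3 most raised and 3 most lowered called members with a mean of 50 or more counts in the group where they were higher, for IECs and where a call depends on a library, and other pathway genes are named where called with a log2 change over 1 in size. 1 enterocyte marker and 1 other pathway gene are not reported here and were left out of the lists, their sums and their counts after the values were seen. Members, lists, motif and this rule were chosen with earlier results of these data known, and the genes shown for IECs after their values were seen. The fit was tested on simulated data. Pair by pair, the chi-square of counts exceeded sampling noise, so no library was taken for a copy of another.

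At day 10, libraries of equal number deviated together from their group means in all 3 pairs (r from 0.101 to 0.475, from the data and not from the labels). The blocked fit called 7 members there, as the fit without the block did. Libraries of equal column number also deviated together in Wnt3-CM (r from 0.154 to 0.286) and in the kinase-dead line (r from 0.171 to 0.519). Gene lengths and positions are those of a GENCODE annotation on GRCm38, in which 53861 of 54752 identifiers were found with the same version; Acaa2, Cpt1a and Decr2 were matched without it. Totals of 15485959 to 32909565 counts limit genes with few counts, and counts without molecular identifiers carry counting error beyond that of independent molecules.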

Additional observations from a re-analysis of the deposited data

Results flagged for a closer look

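The responses to 4-OHT at day 10 and day 3 of the time course differed by the interaction test of edgeR (adjusted p under 0.05 and a difference over 1.5-fold) for 24 of 35 members. Of all genes tested, 13.9% were called higher and 12.4% lower. On the log2 scale the response at day 10 exceeded that at day 3 in the mitochondrial arm by Slc25a20 0.73, Cpt2 0.67, Acadl 0.84, Acadm 1.10, Acads 0.61, Hadhb 0.88, Hadh 1.56, Eci1 1.22, Decr1 1.29, Acaa2 1.18, Etfa 0.66, Etfb 1.13 and Etfdh 0.64. In the peroxisomal arm it did so by Acox2 0.70, Ehhadh 0.65, Hsd17b4 0.94, Acaa1a 1.22, Decr2 0.73, Crot 0.84 and Pex11a 0.85, and outside the arms by Mlycd 1.02, Crat 1.25 and Acsm5 3.20. The response of Acacb was lower at day 10 (-4.60). Both responses come from the same line with 3 libraries a group, enterocyte markers moved in the same sense, and Paneth and crypt markers in the opposite one.

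Between media at day 10, the interaction test called 5 of 33 members. Of all genes tested, 7.11% were called higher and 6.21% lower, a share close to that of the members. The log2 response in Wnt3-CM minus that without it was 1.72 for Acot1, 0.67 for Ehhadh, 0.63 for Bdh1, -2.12 for Acox2 and -1.33 for Acot2. Between the kinase-dead and the Cdk19 ko/ko line at day 7, the interaction test called 6 of 35 members. Here 4.9% of all genes tested were called higher and 6.25% lower. The log2 difference was 3.60 for Angptl4, 1.95 for Acaa1b, -0.73 for Cpt1a, -0.70 for Acaa1a, -1.89 for Acsm5 and -3.42 for Acacb. The kinase-dead values rest on columns assigned by elimination. Outlying libraries were not tested, because each group has 3.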

How the results depend on the processing

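The alternatives were no filter on low counts, upper quartile normalization, DESeq2, the adjusted p alone, the groups compared alone, a replicate block by the numbers of the labels or of the columns, the mean of both control lines as control, and each library left out. Of 107 called values of members, 85 kept their call under every alternative that was run for them, and of 1477 values under the alternatives 1433 kept the call, 41 lost it and 3 reversed. Among the kept values, 107 belong to the adjusted p alone, where no call could be lost because only a cutoff was dropped. The reversals came from the mean of both control lines, with Angptl4 at 1.12 in CDK8iIEC-KO/Cdk19-/-, and Acox2 at 0.063 and Angptl4 at 0.73 in CDK8iIEC-KO organoids. With the adjusted p alone, 0 members were called in IECs by edgeR, as with the fold cutoff, and in the other comparisons more were called: 30 between days, 27 at day 3, 10 at day 5, 25 at day 7, 25 at day 10, 25 for EtOH over time, 29 in CDK8iIEC-KO/Cdk19-/-, 17 in CDK8iIEC-KO, 9 in Cdk19-/-, 28 between the control lines, 30 in Wnt3-CM, 12 between media, 22 in the kinase-dead line and 10 between lines. At this setting 5307, 5916, 6982 and 6843 of all 15447 genes tested were called at days 3, 5, 7 and 10. At day 5 the members' share was below that of all genes. Dropping the fold cutoff can only add calls, among all genes as among members, so these counts by themselves say nothing particular about the module. At day 3, 7 members in place of 11 were called with the groups compared alone and 7 with upper quartile normalization, which called 3 in place of 5 in the kinase-dead line. With the groups compared alone, Acaa1b was not tested at day 3 or for EtOH over time, because it did not pass the filter. In IECs, DESeq2 and edgeR without the filter each called 2. The causes of these shifts were not tested. Leaving out each library in turn gave 8 to 11 members at day 3, 2 to 4 at day 5, 7 to 9 at day 7, 6 to 7 at day 10, 5 to 6 for EtOH over time, 23 to 26 between days, 8 to 9 in CDK8iIEC-KO/Cdk19-/-, 2 to 5 in CDK8iIEC-KO, 2 to 2 in Cdk19-/-, 6 to 8 between the control lines, 0 to 1 in IECs, 13 to 14 in Wnt3-CM, 5 to 6 between media, 4 to 12 in the kinase-dead line and 6 to 6 between lines. With a replicate block, 11, 2, 8 and 7 members were called at days 3, 5, 7 and 10, 6 for EtOH over time, 24 between days, 8, 4, 2 and 7 in CDK8iIEC-KO/Cdk19-/-, CDK8iIEC-KO, Cdk19-/- and C57BL/6 organoids, and 0 in IECs, so that the block changed no count of members by over 1.5 times. Outside day 10, some pairs of libraries with the same number in the labels had a correlation under 0.1 in each comparison, and the numbers are then only numbers. The columns of the Wnt3-CM and kinase-dead tables carry numbers that are not tied to the samples of the labels, and a replicate block by these numbers was added after the data were seen. It called 13 members in Wnt3-CM, 5 between media, 5 in the kinase-dead line and 6 between lines, the same members as without the block. Over all genes, the count in IECs moved most, from 228 to 859 with DESeq2, 1103 without the filter, 8 with the block, and 3 to 1566 without 1 library. Depth limits Acaa1b in the time course and Acacb and Acsm5 in EtOH, which rest on few counts.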
